A study of Mus musculus with 24 samples.

Results

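The genes described here are those that name the machinery of DNA replication and mitosis on the array, and they are called the members. They were taken by symbol: the Mcm, Orc and Gins proteins, Cdc6, Cdc45 and Pcna, DNA polymerase epsilon and its accessory subunits, both classes of ribonucleotide reductase subunit (Rrm1 and Rrm2), Top2a, the A, B and E cyclins, Cdk1 under its older symbol Cdc2a, the Cdc25 phosphatases, Cdc20, the Aurora and Polo-like kinases, the Bub proteins, Birc5, Ttk, the Cenp proteins, the mitotic kinesins and the Cdca genes. Of the 17951 genes in the file, 75 matched, and the 58 whose detection p passed 0.01 on 3 or more of the 24 arrays were kept. The detection p compares a signal with the negative control beads of the same array. The rule itself uses no measured change, but the members were chosen with earlier results of these data known. Of the 58, 47 were detected in all 24 arrays. The other 17 symbols were below that level: Bub1, Ccna1, Ccnb2, Ccnb3, Cdca1, Cenpe, Cenpo, Kif15, Mcm8, Mcm9, Orc1l and Pole2 were detected in no array, and Cdc45l, Cdc6, Orc4l, Cenpk and Kif18a in 1 or 2 arrays. Mki67, Aurkb and Wt1 itself were not analysed here.

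RNA came from whole mouse kidneys at E18.5, with 3 samples in each of 8 groups, and the comparisons ask what loss of Wt1 at different stages of nephron formation does to gene expression. In the 3 mutants both Wt1 alleles were conditional (Wt1co/co) and were deleted by a Cre driver. In Nes-Cre Wt1co/co kidneys Cre came from a transgene under the Nestin promoter, active early in the mesenchyme, and the study describes this driver as incomplete, with Wt1 kept in places. The control of this mutant was Wt1co/co without Cre. In Wnt4+/CreGFP Wt1co/co kidneys a Cre-GFP fusion was expressed from the Wnt4 locus, from the stage of the pretubular aggregate onwards, and in Pax8+/Cre Wt1co/co kidneys Cre was expressed from the Pax8 locus, in condensed mesenchyme, early nephrons and the ureteric bud. Their controls were Wnt4+/CreGFP and Pax8+/Cre kidneys with wild-type Wt1, so these mutants and controls alike carried 1 knock-in allele of the driver gene, whereas the Cre driver itself differed between the Nes-Cre mutant and its control. Nes-Cre kidneys with wild-type Wt1 and wild-type kidneys made up the remaining groups. The strain is labelled C57BL/6, and the methods describe a mixed stock. Nothing says that replicates came from separate litters, so p-values measure the spread between these samples only.

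Before a cell divides, the origin recognition complex (Orc) and Cdc6 load the ring-shaped Mcm helicase onto DNA, and Gins and Cdc45 join it at the fork, where DNA polymerase epsilon (Pole) and the sliding clamp Pcna work on nucleotides supplied by ribonucleotide reductase. Cyclin E and cyclin A with their kinases drive replication, and cyclin B with Cdk1 drives mitosis, in which Aurora and Polo-like kinases, kinesins and the kinetochore built on Cenp proteins separate the chromosomes. In the late embryonic kidney, nephrons are still being formed at the periphery, and dividing cells include those of the cap mesenchyme, the ureteric tips, the stroma and the early nephrons.

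The arrays formed 4 sets of 6, each a control group with the group set against it, and 7458 to 9681 genes were detected per array. Each level of a gene below is the log2 of a background-corrected, quantile-normalized signal, so a difference of 1 is a doubling. Summed levels of marker lists are not log2 values but sums of signals, in which bright markers weigh most. Levels are compared between arrays for 1 gene, not between genes. The 10371 genes detected in at least 3 arrays were tested together in limma, and a gene was called when its p after Benjamini-Hochberg adjustment over all of them was under 0.05. The median standard error (SE) of a log2 change was 0.15. Nes-Cre Wt1co/co replicate 1 stood apart: it lay 0.94 (SD over genes) from the mean of the other arrays of its group, against 0.17 to 0.31 for the arrays of the other groups. Per the methods 1 sample of this mutant failed quality control, with no word on which, so all 3 were used, and values without replicate 1 are given beside counts and calls that change. Because whole kidneys were measured, fewer cells of a type and less RNA per cell cannot be told apart.

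**Figure D1:**
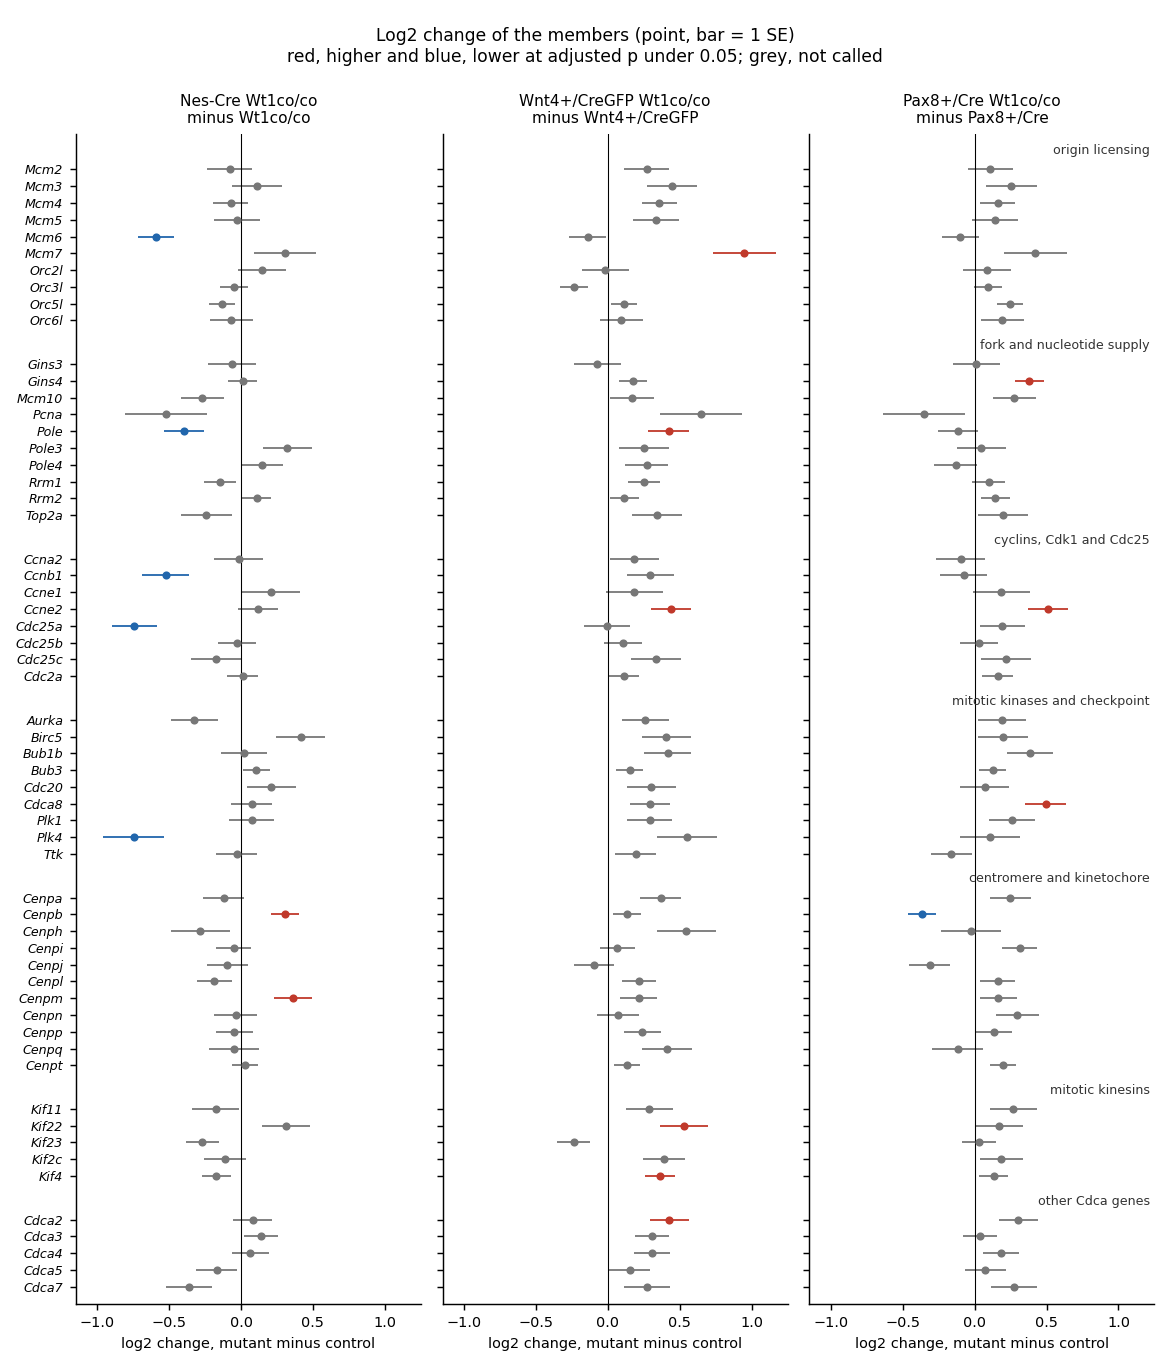
Log2 change of each of the 58 members (x axis, mutant minus control; bars, 1 SE) in the 3 mutant comparisons, grouped by role. Points are red where the member was called higher and blue where it was called lower. In the middle panel 51 of 58 points lie above 0, and Mcm7 stands at 0.95. In the left panel the blue points are Mcm6, Pole, Ccnb1, Cdc25a and Plk4.

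Few members passed the test in any mutant, and none passed it in all 3. In Nes-Cre Wt1co/co kidneys 2 of 58 members rose and 5 fell (12.1%), while 25.9% of all genes tested were called, 11.8% higher and 14.1% lower. In a fit of the 6 compared arrays alone, none of these 7 members was called, Mcm6, Plk4 and Cenpb included (adjusted p of 0.12, 0.094 and 0.28). That fit called only 4 higher and 3 lower over all genes tested. In Wnt4+/CreGFP Wt1co/co kidneys 6 rose and none fell (10.3%), beside 15.8% of all genes, 7.17% higher and 8.61% lower. In Pax8+/Cre Wt1co/co kidneys 3 rose and 1 fell (6.90%), beside 5.07% of all genes, 1.89% higher and 3.18% lower. The share of members called was thus below or near the background in each comparison. In all, 14 members were called somewhere, 3 of them (Ccne2, Cenpb and Pole) in 2 mutants, and 44 were called in none.

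The members were less evenly spread around 0 than other genes in both knock-in mutants. The median log2 change over members was 0.27 in the Wnt4+/CreGFP mutant, where the median over all genes tested was 0.06, and 51 of 58 members (87.9%) were above 0 beside 58.9% of all genes. At an unadjusted p under 0.05, 20 members were higher and 1 lower, together 21 of 58, beside 29.6% of all genes. In the Pax8+/Cre mutant the median was 0.16, beside 0.04, and 47 of 58 (81.0%) were above 0 beside 57.5% of all genes. There 8 members passed an unadjusted p of 0.05 upwards and 2 downwards, beside 17.9% of all genes. In the Nes-Cre mutant the median was -0.05 beside -0.00, and 23 of 58 (39.7%) were above 0 beside 49.4%. Without its replicate 1 the balance turned: the median was 0.09 beside 0.01, and 35 of 58 (60.3%) were above 0 beside 50.7%. The 3 comparisons share no arrays: 42 members were positive in both the Wnt4+/CreGFP and the Pax8+/Cre mutant (72.4% beside 43.2% of all genes). With all 3 arrays of the Nes-Cre mutant, 22 of these were negative there (37.9% of members beside 15.3% of all genes). These are descriptions of a list, with no test.

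**Figure D2:**
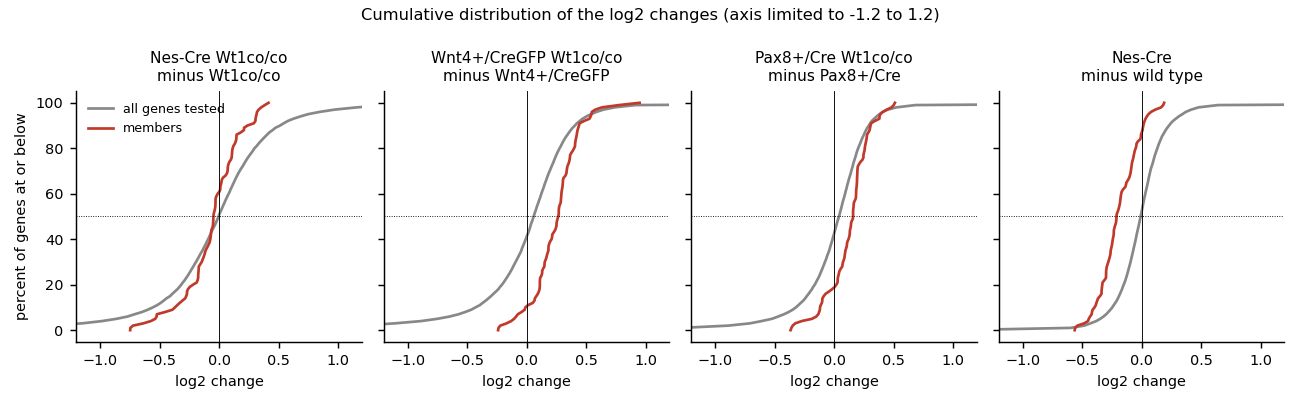
Percent of genes (y axis) whose log2 change is at or below the value on the x axis, for the 58 members (red) and all 10371 genes tested (grey), in the 3 mutant comparisons and in Nes-Cre against wild-type kidneys. The red curve crosses 50% at 0.27 in the Wnt4+/CreGFP mutant, at 0.16 in the Pax8+/Cre mutant and at -0.21 in Nes-Cre kidneys with wild-type Wt1.

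A shift of like size was found where no Wt1 was deleted. In Nes-Cre kidneys the median over members was -0.21 relative to wild-type kidneys, beside -0.01 over all genes, and 50 of 58 members were below 0. By limma none was called, beside 0.164% of all genes (0.0868% higher and 0.0771% lower), and at an unadjusted p under 0.05, 11 members were lower and none higher, beside 8.69% of all genes. The 3 Nes-Cre arrays lay below all 3 wild-type arrays for 21 members (36.2%) and above them for none, beside 9.46% and 8.19% of all genes. All 9 mitotic kinases and checkpoint genes were lower in Nes-Cre than in wild-type kidneys (median -0.30), none of them called. Ttk, which is among the 9, was above background in neither group. Aurka, the kinase of spindle poles, was 9.96, 9.60 and 9.69 in Nes-Cre kidneys and 10.00, 10.27 and 10.31 in wild type, a difference of -0.44 (SE 0.16, adjusted p = 0.40) with no overlap. Bub3, a spindle checkpoint protein, stood at -0.30 (SE 0.09, adjusted p = 0.27). The summed level of the 8 cap mesenchyme markers was 3759 to 4049 in these kidneys and 4076 to 4357 in wild type, and that of the 5 ureteric tip markers 550 to 705 and 706 to 812. The cap marker groups did not overlap and the tip marker groups nearly touched, and their part in the shift was not tested. Set against Nes-Cre instead of Wt1co/co kidneys, which crosses the sets of arrays, the Nes-Cre mutant had 7 members higher and 12 lower (32.8%), beside 39.3% of all genes, 20.3% higher and 19.0% lower. Without replicate 1 of the mutant the balance turned, to 16 higher and 8 lower (41.4%, beside 40.0% of all genes), and the median over members moved from -0.09 to 0.07.

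Sample by sample, the shift of the members was present in each array of the Wnt4+/CreGFP mutant. The median deviation of the 58 members from their control mean was 0.23, 0.36 and 0.18 in replicates 1 to 3, and 51, 52 and 46 members lay above that mean. In the Pax8+/Cre mutant the medians were 0.15, 0.21 and 0.12, with 40, 44 and 42 members above. The Nes-Cre mutant was split: replicate 1 lay at -0.32, with 8 of 58 members above the control mean, and replicates 2 and 3 at 0.11 and 0.07, with 39 and 31 above.

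**Figure D3:**
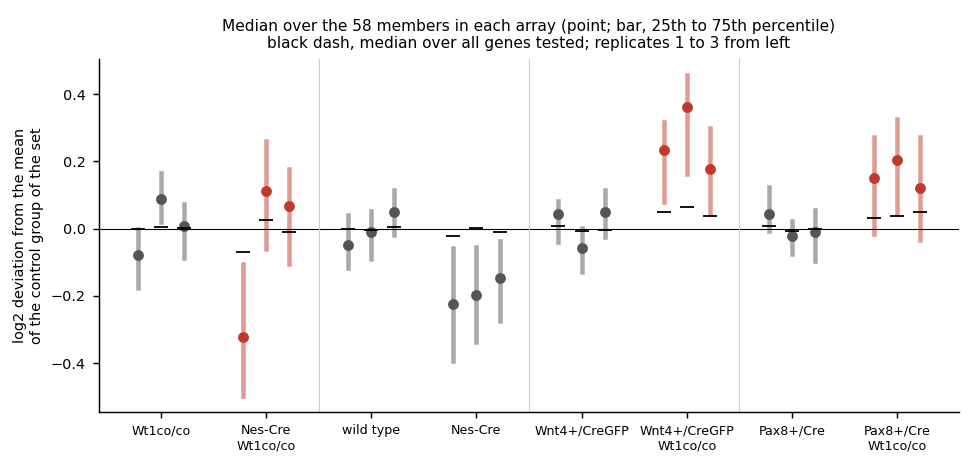
Median log2 deviation of the 58 members (y axis; point, with a bar from the 25th to the 75th percentile) from the mean of the control group of the set, for each array; black dashes are medians over all genes tested. All arrays of both knock-in mutants lie above their controls, all Nes-Cre arrays with wild-type Wt1 lie below wild type, and Nes-Cre Wt1co/co replicate 1 lies at -0.32.

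Markers of cell types changed as well, some in the direction of the members and some not. In Nes-Cre Wt1co/co replicate 1 the summed level of the 5 striated muscle markers in the file was 24968, against 576 and 554 in replicates 2 and 3 and 153 to 240 in the controls. The 8 cap mesenchyme markers summed to 2840 in replicate 1 and to 5835 and 5459 in the others, with 3437 to 3735 in the controls, so they were low in the array where the members were low. The 5 ureteric tip markers behaved alike, at 210 against 1267 and 1164, with 843 to 881 in the controls. In the Wnt4+/CreGFP mutant the cap markers summed to 5299 to 5753, above 3511 to 3784 in the controls, the ureteric tip markers to 914 to 1144 against 629 to 730, and the 8 stromal markers to 7120 to 9082 against 5451 to 6243. In the Pax8+/Cre mutant the cap markers reached 4534 to 4976 against 3931 to 4354, and the tip markers 988 to 1055 against 775 to 874. The stromal markers overlapped there, at 5217 to 5707 against 4973 to 5984, and in the Nes-Cre mutant they were highest in replicate 1, at 19172, with 6131 and 7977 in the others and 5294 to 6678 in the controls. The 6 macrophage markers summed to 1548 to 2591 in the Nes-Cre mutant and 837 to 911 in its controls, and 5 of the 6 rose. The 7 proximal tubule markers were lower in all 3 mutants, with summed levels of 4383 to 11008 against 21191 to 24628 in the Nes-Cre, 3712 to 4823 against 22124 to 23219 in the Wnt4+/CreGFP and 6268 to 6922 against 19006 to 20451 in the Pax8+/Cre mutant. Summed endothelial markers, and those of the loop and distal tubule, were also lower without overlap in all 3 mutants. Summed podocyte markers overlapped their controls in the Pax8+/Cre mutant and summed collecting duct markers in the Nes-Cre mutant. Both sums were lower without overlap in the other mutants. Taken singly, none of the 6 podocyte markers had a positive change in the Pax8+/Cre mutant (median log2 change -0.89). There 3 of the 6 were called lower (50%, beside 5.07% of all genes, 3.18% lower). The part of these cell types in the changes of the members was not tested.

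The members share short promoter sequences that their choice did not use, and windows of 6 members that the comparisons turn on are printed to show them. RefSeq windows (GRCm38.p6) from 250 bases before to 50 bases after the gene start were found for 51 of the 58 members. The cell cycle genes homology region (CHR), read as TTTGAA or TTCGAA on either strand, was in 24 of these windows (47.1%), beside 19.2% of all 32851 windows in the table. An E2F motif, read as TTTCCCGC, TTTCGCGC, TTTGCCGC or TTTGGCGC on either strand, was in 13 (25.5%) beside 2.27%, and CCAAT, on either strand, in 36 (70.6%) beside 37.4%. The table holds genes of every kind and level, and base composition was not matched. Members were counted by their first window only, whereas the background counted every window in the table. Matched letters are in capitals.
Mcm7, helicase subunit, chr5:138171834-138172133, minus strand, with CHR, E2F and CCAAT: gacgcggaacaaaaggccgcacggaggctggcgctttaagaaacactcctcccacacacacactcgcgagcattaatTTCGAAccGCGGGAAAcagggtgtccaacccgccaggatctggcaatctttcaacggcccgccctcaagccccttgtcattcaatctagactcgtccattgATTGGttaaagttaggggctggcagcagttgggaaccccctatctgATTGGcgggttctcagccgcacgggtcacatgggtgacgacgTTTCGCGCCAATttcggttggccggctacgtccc
Kif4, chromosome-associated kinesin, chrX:100625815-100626114, plus strand, with CCAAT and CHR: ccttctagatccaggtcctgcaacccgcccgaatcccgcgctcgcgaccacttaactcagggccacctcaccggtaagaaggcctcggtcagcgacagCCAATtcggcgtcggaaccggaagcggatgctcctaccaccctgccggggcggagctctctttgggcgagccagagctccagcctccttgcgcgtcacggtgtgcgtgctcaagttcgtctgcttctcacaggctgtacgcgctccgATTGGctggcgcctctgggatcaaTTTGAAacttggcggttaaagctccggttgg
Kif22, chromosome arm kinesin, chr7:127042371-127042670, minus strand, with CHR and CCAAT: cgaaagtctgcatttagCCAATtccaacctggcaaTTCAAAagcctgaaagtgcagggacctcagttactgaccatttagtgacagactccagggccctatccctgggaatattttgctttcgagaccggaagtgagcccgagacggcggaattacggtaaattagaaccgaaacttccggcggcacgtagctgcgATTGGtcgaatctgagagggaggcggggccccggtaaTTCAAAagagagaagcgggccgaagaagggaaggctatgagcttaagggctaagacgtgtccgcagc
Cdc25a, phosphatase, chr9:109875329-109875628, plus strand, with CCAAT and E2F: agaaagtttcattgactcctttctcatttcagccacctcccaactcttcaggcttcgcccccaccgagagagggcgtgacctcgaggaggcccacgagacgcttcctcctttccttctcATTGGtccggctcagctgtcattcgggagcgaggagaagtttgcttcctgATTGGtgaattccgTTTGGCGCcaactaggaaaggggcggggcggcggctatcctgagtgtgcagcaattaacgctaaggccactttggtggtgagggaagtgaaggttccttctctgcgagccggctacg
Ccnb1, cyclin B, chr13:100786437-100786736, minus strand, with CCAAT: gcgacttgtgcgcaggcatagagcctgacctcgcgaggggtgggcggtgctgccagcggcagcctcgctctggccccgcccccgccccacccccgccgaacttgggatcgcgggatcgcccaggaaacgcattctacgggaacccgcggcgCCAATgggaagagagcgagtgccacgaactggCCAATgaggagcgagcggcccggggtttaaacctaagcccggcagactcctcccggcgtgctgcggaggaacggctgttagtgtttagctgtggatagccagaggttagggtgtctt
Plk4, centriole kinase, chr3:40799701-40800000, plus strand, with none of these motifs: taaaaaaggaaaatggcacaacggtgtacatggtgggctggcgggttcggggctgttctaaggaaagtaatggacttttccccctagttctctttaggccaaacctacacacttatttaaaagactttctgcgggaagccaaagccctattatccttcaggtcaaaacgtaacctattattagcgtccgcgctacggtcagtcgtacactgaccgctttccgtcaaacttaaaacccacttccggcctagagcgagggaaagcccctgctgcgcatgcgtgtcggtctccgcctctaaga
The first base of the gene is base 251 of each window. In Mcm7 the second E2F match and a CCAAT share 1 base. Members with and without a CHR differed little in median change, at 0.28 and 0.24 in the Wnt4+/CreGFP mutant, 0.16 and 0.13 in the Pax8+/Cre mutant and -0.03 and -0.05 in the Nes-Cre mutant. For E2F the medians with and without were 0.21 and 0.27, 0.16 and 0.14, and -0.03 and -0.05 in the same order.

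Among the 10 origin licensing genes, the Mcm helicase gave the largest rise and 1 of the larger falls. Mcm7 stood at 8.21, 8.01 and 7.65 in Wnt4+/CreGFP Wt1co/co kidneys and at 6.65, 7.22 and 7.15 in the controls. All mutant arrays were above all controls, and Mcm7 rose by 0.95 on the log2 scale (SE 0.22, 1.93-fold, adjusted p = 0.0054). This was the only call of a member in that mutant that held under all 20 alternative settings. Mcm7 stood at 6.75, 7.29 and 7.08 in the Pax8+/Cre mutant and 6.57, 6.62 and 6.68 in its controls, again with no overlap, a change of 0.42 (SE 0.22, adjusted p = 0.32). In the Nes-Cre mutant it was 6.75, 7.63 and 7.74 against 6.94, 7.19 and 7.08, so replicate 1 lay below the controls and the others above, a change of 0.31 (adjusted p = 0.31). Without replicate 1 the change was 0.62 and was called (adjusted p = 0.017). In Nes-Cre kidneys with wild-type Wt1, Mcm7 was 6.56, 6.33 and 6.42, below 6.74, 7.01 and 7.22 in wild type, a difference of -0.55 (SE 0.22, adjusted p = 0.43).

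Mcm6, another subunit of the same helicase ring, fell by 0.59 in the Nes-Cre mutant (SE 0.13, 1.51-fold, adjusted p = 0.0026). Its levels were 8.88, 8.99 and 9.05 there and 9.70, 9.69 and 9.30 in the controls, with no overlap. Its detection p passed 0.01 in 2 of the 3 mutant arrays only, although its signal there was 291 to 369, beside a background mean of 50.7 to 51.1. The row had a signal over 3 times the background in 2 arrays in which its detection p did not pass. The change was -0.14 with the Wnt4+/CreGFP driver and -0.10 with Pax8+/Cre (adjusted p = 0.50 and 0.76). The other ring subunits Mcm2, Mcm3, Mcm4 and Mcm5 changed by 0.27, 0.45, 0.36 and 0.34 in the Wnt4+/CreGFP mutant, with adjusted p of 0.26, 0.093, 0.054 and 0.17. They lay between 0.11 and 0.26 in the Pax8+/Cre mutant and between -0.08 and 0.11 in the Nes-Cre mutant, none of them called. In each of the 3 mutants Mcm6 had the lowest and Mcm7 the highest change of the 6 subunits. The differences between subunits were not tested. Of the Orc subunits, which mark origins, Orc3l, Orc5l and Orc6l changed by -0.23 to 0.25 over the 3 mutants and were not called, and Orc2l was near background.

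The 10 genes of the fork and of nucleotide supply held a member that moved in opposite directions. Pole, the catalytic subunit of DNA polymerase epsilon, stood at 7.53, 7.33 and 7.20 in the Wnt4+/CreGFP mutant and at 7.14, 6.84 and 6.81 in its controls. It rose by 0.42 (SE 0.14, 1.34-fold, adjusted p = 0.048), with no overlap. With Nes-Cre deletion Pole was 6.06, 6.46 and 6.47, below 6.64, 6.87 and 6.68 in the controls, and fell by 0.40 (SE 0.14, 1.32-fold, adjusted p = 0.044). Without replicate 1 the latter call was lost (adjusted p = 0.18). Both calls lie near the threshold: they held under 10 and 7 of 20 alternative settings.

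Gins4, a subunit of the Gins complex of the helicase, was 11.03, 11.10 and 11.10 in the Pax8+/Cre mutant and 10.74, 10.76 and 10.59 in the controls. It rose by 0.38 (SE 0.10, 1.30-fold, adjusted p = 0.029) with no overlap, while its changes in the Wnt4+/CreGFP and Nes-Cre mutants were 0.17 and 0.01. Pcna, the sliding clamp, was detected in no array of the Nes-Cre mutant and in all 3 controls, at measured levels of 5.11, 4.98 and 5.06 against 5.49, 5.74 and 5.49. The groups did not overlap, and Pcna was 1.44-fold lower in the mutant by the measured means, without passing the test (adjusted p = 0.18). The 95% interval of the log2 change was -1.12 to 0.07. As Pcna was not detected in the mutant, its level there is uncertain. With Wnt4+/CreGFP deletion Pcna was 6.05, 6.46 and 7.37 against 6.07, 5.75 and 6.11, a change of 0.65 (SE 0.28, adjusted p = 0.13) that rested mainly on replicate 3. Rrm1 and Rrm2, the reductase subunits, changed by 0.25 and 0.11 in the Wnt4+/CreGFP, 0.10 and 0.14 in the Pax8+/Cre and -0.15 and 0.11 in the Nes-Cre mutant, and Top2a, which untangles replicated DNA, by 0.34, 0.19 and -0.24. None of these passed the test.

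Among the 8 cyclin, Cdk1 and Cdc25 genes, Ccne2 rose in 2 mutants. Cyclin E2, its product, activates Cdk2 at the entry to replication. Ccne2 was 7.75, 7.79 and 7.54 in the Pax8+/Cre mutant and 7.30, 7.21 and 7.04 in the controls, a rise of 0.51 (SE 0.14, 1.43-fold, adjusted p = 0.037). In the Wnt4+/CreGFP mutant it was 7.33, 7.80 and 7.23 against 7.09, 7.05 and 6.91, a rise of 0.44 (SE 0.14, 1.35-fold, adjusted p = 0.036). Neither pair of groups overlapped. With Nes-Cre the levels were 6.99, 7.10 and 6.69 against 6.60, 6.87 and 6.95, which overlapped, with a change of 0.12 (adjusted p = 0.56). The related Ccne1 changed by 0.18 to 0.21 in the 3 mutants and was called in none.

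Cdc25a, the phosphatase that activates the Cdks at the start of replication, was among the clearest falls of a member in the Nes-Cre mutant. It stood at 7.94, 8.21 and 7.97 there and at 8.53, 8.98 and 8.85 in the controls, and fell by 0.74 (SE 0.16, 1.67-fold, adjusted p = 0.0022) with no overlap. The fall was called under 18 of 20 alternative settings, and not in the fit of the 6 compared arrays alone or against Nes-Cre kidneys. Its changes with the Wnt4+/CreGFP and Pax8+/Cre drivers were -0.01 and 0.19, and its paralog Cdc25b changed by -0.03 in the Nes-Cre mutant. Ccnb1, the cyclin of mitotic entry, was 8.70, 9.34 and 9.23 in the Nes-Cre mutant and 9.61, 9.84 and 9.40 in its controls. It fell by 0.53 (SE 0.16, 1.44-fold, adjusted p = 0.023), but replicate 1 was the lowest array and without it the call was lost (adjusted p = 0.11). Ccnb1 changed by 0.30 in the Wnt4+/CreGFP mutant (9.78, 9.76 and 9.91 against 9.43, 9.52 and 9.62, no overlap, adjusted p = 0.23). Its partner kinase Cdc2a changed by 0.01, 0.11 and 0.16 in the 3 mutants (Nes-Cre first, Pax8+/Cre last). Its row had a signal over 3 times the background in 9 arrays in which its detection p did not pass, so its values are less certain. Ccna2, the cyclin of replication and early mitosis, was not above background in any array of the Nes-Cre or Wnt4+/CreGFP comparison.

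**Figure D4:**
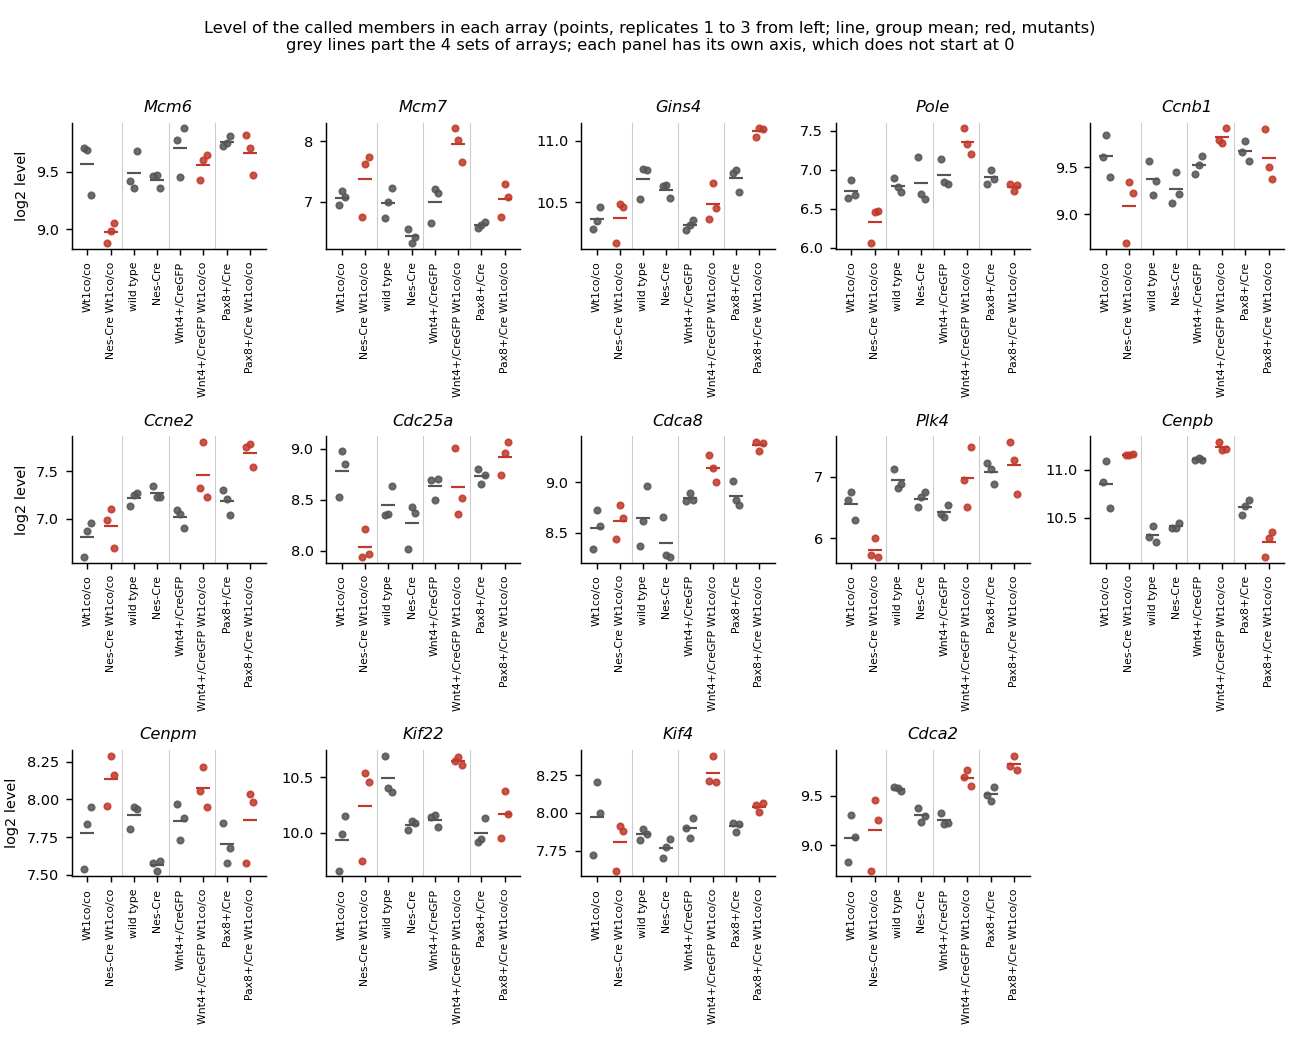
Log2 level (y axis) of the 14 members called in any mutant comparison, in each of the 24 arrays; points are arrays, lines group means, red the mutants, and grey lines part the 4 sets. Mcm7 lies at 7.65 to 8.21 in the Wnt4+/CreGFP mutant and at 6.65 to 7.22 in its controls, and Plk4 at 5.70 to 6.00 in the Nes-Cre mutant and 6.29 to 6.75 in its controls.

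Of the 9 mitotic kinases and checkpoint genes, Plk4 fell in the Nes-Cre mutant and Cdca8 rose in the Pax8+/Cre mutant. Plk4, the kinase that starts centriole duplication, was 5.72, 6.00 and 5.70 in Nes-Cre Wt1co/co kidneys and 6.62, 6.75 and 6.29 in the controls. It fell by 0.75 (SE 0.21, 1.68-fold, adjusted p = 0.015), with no overlap. In the Wnt4+/CreGFP mutant its levels, 6.94, 6.50 and 7.49, overlapped those of the controls, 6.40, 6.34 and 6.55, with a change of 0.55 (adjusted p = 0.086). Cdca8, or borealin, belongs to the chromosomal passenger complex with Birc5. It was 9.39, 9.31 and 9.38 in the Pax8+/Cre mutant, above 9.01, 8.82 and 8.77 in the controls, a rise of 0.49 (SE 0.14, 1.41-fold, adjusted p = 0.048). Ttk, a checkpoint kinase, was not above background in either group of the Wnt4+/CreGFP comparison. The other 8 genes of this group had positive changes there, from 0.15 for Bub3 to 0.55 for Plk4, and none was called. The mitotic kinase Aurka, the kinase Plk1, the checkpoint protein Bub1b, the anaphase activator Cdc20 and Birc5 changed there by 0.26, 0.29, 0.42, 0.30 and 0.41. With Nes-Cre the same genes changed by -0.32, 0.07, 0.02, 0.21 and 0.42, and Birc5 was called without replicate 1 (0.65).

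Cenp genes, grouped here by symbol as centromere and kinetochore genes, numbered 11, and 2 of them rose in the Nes-Cre mutant. Cenpb, which binds a repeat of centromeric DNA, was 11.16, 11.15 and 11.16 there and 10.87, 11.09 and 10.60 in the controls, and rose by 0.30 (SE 0.10, 1.24-fold, adjusted p = 0.028). In the Pax8+/Cre mutant the same gene fell by 0.37 (SE 0.10, 1.29-fold, adjusted p = 0.037), from 10.54, 10.62 and 10.69 to 10.10, 10.30 and 10.36. Neither pair overlapped. Cenpm, of the inner kinetochore, was 7.95, 8.29 and 8.16 in the Nes-Cre mutant and 7.54, 7.84 and 7.95 in its controls, and rose by 0.36 (SE 0.13, 1.28-fold, adjusted p = 0.046). The highest control and the lowest mutant array nearly touched, and the call held under 11 of 20 alternative settings. Cenpa, the histone H3 variant of centromeres, changed by 0.37 in the Wnt4+/CreGFP mutant, where none of the 11 was called and 10 were positive. The remaining gene, Cenpj (-0.10), was above background in neither group there.

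Of the 5 mitotic kinesins, Kif22 and Kif4 rose in the Wnt4+/CreGFP mutant. Kif22, which pushes chromosome arms to the spindle equator, was 10.65, 10.68 and 10.61 there and 10.14, 10.16 and 10.05 in its controls, a rise of 0.53 (SE 0.17, 1.44-fold, adjusted p = 0.036). Kif4, which binds condensed chromosomes and the midzone, was 8.21, 8.38 and 8.21 against 7.90, 7.83 and 7.97, a rise of 0.36 (SE 0.10, 1.29-fold, adjusted p = 0.021). In both the groups were apart. Kif22 changed by 0.31 in the Nes-Cre mutant, where its array values of 9.74, 10.54 and 10.46 were split like those of Mcm7, and by 0.17 in the Pax8+/Cre mutant. Kif11, Kif2c and Kif23 were called in no mutant. Of the 5 other Cdca genes, Cdca2, which recruits a phosphatase to mitotic chromosomes, rose in the Wnt4+/CreGFP mutant by 0.43 (SE 0.14, 1.34-fold, adjusted p = 0.038), from 9.33, 9.21 and 9.22 to 9.68, 9.76 and 9.60. All 5 had positive changes in both knock-in mutants.

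The number of calls depended on Nes-Cre Wt1co/co replicate 1 in mutants other than its own, because all groups share 1 estimate of the spread. Without it 18 members rose in the Wnt4+/CreGFP mutant and none fell, beside 27.0% of all genes called. The additional ones were Birc5, Bub1b, Cdc25c, Cdca3, Cdca4, Cenpa, Cenph, Kif2c, Mcm3, Mcm4, Mcm5 and Top2a. The detection p of Cdc25c passed in none of the 6 arrays compared. Its signal there was 110 to 188, beside a background mean of 48.1 to 60.1, so its values are less certain. In the Nes-Cre mutant 9 members then rose and 3 fell, beside 27.1% of all genes, and the median over members was 0.09 beside 0.01. Those that rose were Birc5, Cdc20, Cdca3, Cdca4, Cenpb, Cenpm, Kif22, Mcm7 and Pole3, and those that fell were Cdc25a, Mcm6 and Plk4. In the Pax8+/Cre mutant the same 4 members were called, beside 11.9% of all genes. Leaving out an array of the pair compared lowered most counts of members, which stand here without the share of all genes called in the same fit. In the Wnt4+/CreGFP mutant 3 or 2 members rose without its replicate 1 or 2, and 2, 1 or 2 without control replicate 1, 2 or 3. In the Nes-Cre mutant 1 or 0 members rose without its replicate 2 or 3, 0 rose and 3 fell without control replicate 1, and 1 rose and 2 fell without control replicate 2. In the Pax8+/Cre mutant 1 member rose without its replicate 3, and none without any other of the 6 arrays. Arrays of the Wnt4+/CreGFP mutant and its control did not overlap for 29 of 58 members, all higher in the mutant, beside 44.1% of all genes apart in either direction and 25.6% higher in the mutant. With the Pax8+/Cre driver 18 lay above and 3 below, beside 19.3% and 13.4%, and for the Nes-Cre mutant 2 and 8, beside 15.6% and 18.2%.

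Whether a change differed between mutants was tested as a difference of differences, each mutant relative to its own control. The Nes-Cre mutant differed from the Wnt4+/CreGFP mutant in 2 members, beside 2.63% of all genes: Plk4 by -1.30 (SE 0.30, adjusted p = 0.025) and Pole by -0.82 (SE 0.20, adjusted p = 0.033). From the Pax8+/Cre mutant it differed in 2, beside 2.04%: Cdc25a by -0.94 (SE 0.22, adjusted p = 0.032) and Cenpb by 0.67 (SE 0.14, adjusted p = 0.017). When both knock-in mutants were compared, limma called none, beside 0.231%, and at an unadjusted p under 0.05, 4 members were higher with Wnt4+/CreGFP and 1 lower, beside 9.21% of all genes. Mcm7, called in the Wnt4+/CreGFP mutant only, had a change that was lower in the Nes-Cre mutant by a difference of -0.64 (adjusted p = 0.25), so a difference between these mutants was not shown.

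Other replication and mitosis genes, outside the symbol rule, moved alike in the Wnt4+/CreGFP mutant. Of 31 other replication genes tested from a list of 38, none was called in the Pax8+/Cre mutant (median 0.11), beside 5.07% of all genes. In the Wnt4+/CreGFP mutant 8 rose and none fell (25.8%, beside 15.8% of all genes, 7.17% higher), with a median change of 0.27. They included Pold1, the catalytic subunit of DNA polymerase delta (0.66, SE 0.18, adjusted p = 0.016), Rfc4, a clamp loader subunit (0.64, SE 0.13, adjusted p = 0.0026), Uhrf1, which couples DNA methylation to replication (0.54, SE 0.13, adjusted p = 0.0090), and Rpa1, which coats single-stranded DNA (0.39, SE 0.12, adjusted p = 0.034). In the Nes-Cre mutant Pold4 rose (0.43), and Dbf4, the partner of the kinase Cdc7 that fires origins (-0.62), Dut (-0.57) and the flap nuclease Fen1 (-0.42) fell, with a median of -0.02 over the list. That was 12.9% of the list, beside 25.9% of all genes. Without replicate 1 these 4 calls were lost (adjusted p = 0.16, 0.060, 0.18 and 0.12), 6 other genes of the list rose and none fell, and the median was 0.10. Of 20 other mitosis genes tested from a list of 41, 4 (20%) rose and none fell in the Wnt4+/CreGFP mutant. Of all genes 15.8% were called there, 7.17% higher. The 4 were the spindle proteins Nusap1 (0.59), Tpx2 (0.57) and Spag5 (0.48), and the kinase Melk (0.55). The median of that list was 0.29, beside 0.06 over all genes. Prc1, a midzone protein, rose in the Pax8+/Cre mutant (0.33), and Gtse1 rose (0.37) and Spc25 (-0.62) and Ncapd2 (-0.42) fell in the Nes-Cre mutant, of which Ncapd2 was not called without replicate 1 (adjusted p = 0.072). These calls were 5% and 15% of the mitosis list, beside 5.07% and 25.9% of all genes. In the fit without replicate 1 of the Nes-Cre mutant, 13 replication and 9 mitosis genes of these lists rose in the Wnt4+/CreGFP mutant and none fell. Of all genes 27.0% were called there, 1477 higher and 1318 lower of 10371. In the Pax8+/Cre mutant 2 replication genes then rose and none fell, beside 11.9% of all genes called, 558 higher and 671 lower of 10371.

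Regulators of the cycle were called in each mutant, with 25.9%, 15.8% and 5.07% of all genes called in the 3 comparisons (Nes-Cre first, Pax8+/Cre last). Of 8 cell cycle inhibitors tested, 2 were called higher and 4 lower in the Nes-Cre mutant, and 1 higher and 2 lower without replicate 1. Cdkn2b, which blocks the cyclin D kinases, rose by 1.35 (SE 0.38, adjusted p = 0.014), and Cdkn2c, a relative of it, was detected in 1 of the 6 arrays only. Gadd45a, a growth arrest gene induced by DNA damage, fell by 1.05 (SE 0.17, adjusted p = 0.00027), and it was the only inhibitor called in the other mutants, with falls of 0.89 in the Wnt4+/CreGFP and 0.69 in the Pax8+/Cre mutant. Rb1, the retinoblastoma protein, Cdkn1a and Cdkn1c fell in the Nes-Cre mutant by 0.66, 0.45 and 0.34. Cdkn2b, Cdkn1a and Cdkn1c were not called without replicate 1 (adjusted p = 0.065, 0.21 and 0.17). Of 12 cell cycle transcription factors tested, all 12 had positive changes in the Wnt4+/CreGFP mutant (median 0.20), where E2f6 rose by 0.28, and E2f4 fell by 0.52 in the Nes-Cre mutant. E2f2, also called lower there, was detected in 1 of the 6 arrays only and was not called without replicate 1. Without that array 4 of the 12 factors rose in the Wnt4+/CreGFP mutant and none fell, beside 1477 higher and 1318 lower of 10371 genes. Of 5 G1 cyclins and kinases, Cdk2 rose by 0.46 in the Wnt4+/CreGFP mutant and Ccnd2 fell by 0.57 in the Nes-Cre mutant.

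The size of the shift in the Wnt4+/CreGFP mutant depended on the values used. Genes were ordered by mean signal into 4 equal classes, and in each the median over members was 0.18 to 0.30, beside 0.05 to 0.08 over all genes. The dimmest class held only 5 members, and Ccna2, Ttk, Cenpj and Orc2l among them were above background in neither group. That class thus cannot show whether dim members shared the shift. In the other classes, of 14, 15 and 24 members, the medians were 0.30, 0.21 and 0.29, so the shift was not confined to the brightest. With the ratio values that the authors deposited, the median over members was -0.06, beside -0.13 over all genes, with 1 member higher and 1 lower. Centred per array, these values gave 0.07 beside -0.00, with 1 higher and 2 lower. The call of Mcm7 held with both.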

How the data were processed

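RNA of 24 whole-kidney samples was hybridised to Illumina bead arrays, 1 array per sample. The authors deposited non-normalized intensities with a detection p-value per gene, and a table of ratio values with scale and centring not stated, used here only as an alternative. The array's annotation build was not given in the sources used here. Background was removed with limma's normexp convolution (limma 3.58.1, R 4.3.3; Python 3.11.15 for figures and motifs), with the background mean and SD read on each array from the intensities at detection p near 0.5 and 0.16, an offset of 16, and quantile normalization. This replaced limma's own inferred background, whose SD was 113 to 397 on these arrays, beside 3.98 to 17.5 read directly. It is kept as an alternative. In every group the ratio values carry replicate numbers 1 and 3 the other way round from the intensities, whose numbering is used here. A linear model with 8 group means over all 24 arrays (lmFit, eBayes) gave log2 changes with SE, and the number of arrays limits their precision. The procedure was tested on simulated data. Genes were named if called without overlap between groups (up to 8 in each direction), as landmark members, as the largest differences of differences, or as up to 4 called genes per other list; other members named were chosen after their values were seen. The members and lists were chosen with earlier results of these data known. Alternatives were background, offset, scaling, ratio values, detection filters, replicate block, array weights, the arrays compared alone, a fold minimum of 1.5, Nes-Cre kidneys as control, and each array left out. Ratio values centred per array, and all alternatives for Nes-Cre against wild type, were added after seeing the data.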

Additional observations from a re-analysis of the deposited data

Results flagged for a closer look

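The change of 4 members differed between mutants by the test of the difference itself, each mutant taken relative to its own control in limma. Plk4 differed by -1.30 (SE 0.30, adjusted p = 0.025) between the Nes-Cre and the Wnt4+/CreGFP mutant. The difference was called without Nes-Cre Wt1co/co replicate 1 (-1.26), and was not called with limma's inferred background (adjusted p = 0.12), with scaling to the 75th percentile (adjusted p = 0.063) or with the authors' ratio values (adjusted p = 0.47). Pole differed by -0.82 (SE 0.20, adjusted p = 0.033) between the same mutants, and was not called with scaling to the 75th percentile (adjusted p = 0.089) or with the ratio values (adjusted p = 0.31). Cdc25a differed by -0.94 (SE 0.22, adjusted p = 0.032) between the Nes-Cre and the Pax8+/Cre mutant, and by -1.34 (adjusted p = 0.0079) with the ratio values. Cenpb differed by 0.67 (SE 0.14, adjusted p = 0.017) between the same mutants, and by 0.16 (adjusted p = 0.64) with the ratio values.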

How the results depend on the processing

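Unless stated, counts of members in this section stand without the share of all genes called under the same setting. They show how calls moved with the setting, not whether members differed from other genes. With limma's inferred background 3 members were lower in the Nes-Cre mutant and 10 higher in the Wnt4+/CreGFP mutant (median 0.19). Scaling to the 75th percentile gave 5 higher and 3 lower in the Nes-Cre mutant, 0 differing from the Wnt4+/CreGFP and 4 from the Pax8+/Cre mutant, and turned Ccna2 to 0.66 in the Nes-Cre mutant. It moved the median of all genes to 0.14 in the Nes-Cre and 0.15 in the Wnt4+/CreGFP mutant. The authors' ratio values gave 0 higher and 14 lower (median -0.32) in the Nes-Cre mutant, with Cenpm at -0.051, 1 higher and 1 lower (median -0.056) in the Wnt4+/CreGFP mutant, 0 lower (median 0.29) in the Pax8+/Cre mutant, and 0 and 20 members differing between the Nes-Cre mutant and those mutants. Their medians over all genes were -0.19, -0.13 and 0.13. Centred per array, chosen after seeing the data, they gave 0 higher and 9 lower, 1 higher and 2 lower (median 0.071), and 0 and 7 differing. Without a detection filter 1 member was higher in the Nes-Cre and 3 in the Wnt4+/CreGFP mutant. In fits of only the arrays compared, 0 were higher and 0 lower in the Nes-Cre mutant (4 higher and 3 lower over all genes), 17 were higher in the Wnt4+/CreGFP mutant, and 0, 0 and 1 differed between mutants. Array weights gave 9 higher in the Nes-Cre, 23 higher and 2 lower in the Wnt4+/CreGFP, and 24 higher and 2 lower in the Pax8+/Cre mutant, and 6, 7 and 4 differing. With a fold of at least 1.5, 0 were higher and 3 lower, 1 higher, and 0 higher and 0 lower in the same order. Against Nes-Cre kidneys, which crosses the sets of arrays, 7 were higher and 12 lower in the Nes-Cre mutant (16 and 8 without its replicate 1), and 12 and 8 differed. For Nes-Cre against wild-type kidneys the median was -0.11 with limma's background, -0.16 with no correction, -0.10 with the ratio values and -0.11 with these centred, and 0 members were called.

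Leaving out each array in turn gave 0 to 9 higher, 2 to 7 lower and a median of -0.12 to 0.09 in the Nes-Cre mutant, 1 to 18 higher, 0 lower and 0.23 to 0.29 in the Wnt4+/CreGFP mutant, 0 to 3 higher, 0 to 1 lower and 0.12 to 0.18 in the Pax8+/Cre mutant, and 0 to 8, 1 to 3 and 0 differing between mutants. For Nes-Cre against wild type it gave 0 called and a median of -0.23 to -0.17. In the fit with the replicate number as a block, 2 members were higher and 5 lower in the Nes-Cre, 5 higher in the Wnt4+/CreGFP, and 2 higher and 1 lower in the Pax8+/Cre mutant, so Pole and Cdca8 lost their calls. Samples with the same number did not deviate together (correlations of 0.01 to 0.07 in the Nes-Cre, -0.20 to -0.13 in the Wnt4+/CreGFP and -0.06 to 0.06 in the Pax8+/Cre comparison). This cannot show whether samples with the same number were paired, by litter or otherwise. The causes of these changes were not tested. Dim members, such as Ccna2, Ttk and Pcna, are limited by their signal over background.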
